A study of Sus scrofa with 102 samples.

Results

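Heat shock proteins and other chaperones form a set of 47 genes among the 2201 genes that a probe of the deposited data names singly. The members were chosen by symbol, covering the HSP, DNAJ, CCT, BAG, FKBP, PPI, PDIA and HSF series together with STIP1, CRYAB and CANX, and the rule reads symbols and no measured value. They are represented by 66 of the 5449 probes tested, and each gene is described by its probe with the highest mean, all values being on the log2 scale of the deposited normalised signal. HSF2BP, which encodes a binding partner of HSF2, and HSPBP1, which encodes a factor that binds HSP70, also match the rule and belong to none of the role groups below. Several well-known members of the families, among them HSPA5, HSP90B1, CALR, HSPD1 and HSPE1, are not among the named probes of the deposited data. The authors' methods describe a filter on variation, and whether the array itself carries probes for these genes was not examined.

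The samples are *Longissimus dorsi*, the main muscle of the loin, of 102 backcross pigs, 55 females and 47 males, bred by mating F1 boars, themselves from Iberian boars and Landrace sows, to Landrace sows. All pigs were fed ad libitum, and the RNA came from muscle kept frozen after slaughter. They were slaughtered in 3 batches, and slaughter batch here is the label of the slaughter group and nothing more. Batch 1 holds 14 pigs (8 females and 6 males) aged 171 to 181 days with carcasses of 46.2 to 81.4 kg. Batch 2 holds 70 pigs (36 females and 34 males) aged 178 to 184 days with carcasses of 49.9 to 97.8 kg. Batch 3 holds 18 pigs (11 females and 7 males) aged 178 to 181 days with carcasses of 43.6 to 80.9 kg. Transport, lairage and handling before slaughter are not analysed here, so the comparisons below are with batch, sex and carcass weight and with the other chaperones of the same animals. The pigs are related, and the pedigree was not used here.

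Chaperones keep proteins folded, and cells add more of them when proteins begin to unfold. Heat shock factor 1 switches on the cytosolic set under heat, exercise or oxidative stress, with HSP70 and HSP90 proteins working alongside J proteins, which hand them their clients, and BAG proteins, which release them. Small heat shock proteins hold unfolding proteins in solution and are abundant in muscle, where they bind the contractile apparatus, while separate chaperones serve the endoplasmic reticulum and the mitochondria.

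The arrays themselves differed between batches. An F test of batch called 4721 of the 5449 probes, or 86.6%, and the members took the same share, 41 of 47 or 87.2%. All adjusted p-values for single genes are from limma's moderated tests with sex, batch and carcass weight in the model and Benjamini-Hochberg adjustment over all probes, with a threshold of 0.05. The median difference over all probes was -0.11 for batch 1 against batch 2 and -0.17 for batch 3 against batch 2. The signal of the actin control probe at the 5′ end minus that of the middle one, which falls as RNA degrades or is copied less fully, averaged -0.80 ± 0.29 (SD, n = 70) in batch 2, -1.28 ± 0.30 (SD, n = 14) in batch 1 and -1.32 ± 0.43 (SD, n = 18) in batch 3. Of 18 skeletal muscle markers listed, 3 were measured (DES, PYGM and TNNT1), and their mean ran from 12.4 to 14.1 in batch 1, 12.0 to 14.3 in batch 2 and 11.7 to 13.4 in batch 3, with batch means of 12.8, 13.7 and 12.6. DES and PYGM were lower outside batch 2 and TNNT1 was not called. The single fast fibre marker measured, ATP2A1, averaged 12.2, 13.7 and 12.2 in batches 1, 2 and 3, and the mean of 3 macrophage markers 5.50, 4.68 and 4.98. Batch called 3 of 6 slow fibre markers, all higher in batch 3, all 4 fibroblast markers and all 5 endothelial markers. The fibroblast markers went both ways, with 3 higher and 1 lower in batch 1 and 2 higher and 1 lower in batch 3. Among the higher ones was COL3A1 (0.96 and 1.31 above batch 2). Of the endothelial markers, 2 were higher and 0 lower in batch 1, and 0 higher and 2 lower in batch 3. No lymphocyte or red cell marker of the lists was measured. In 5 arrays (0, 3 and 2 in batches 1, 2 and 3) the probes that differ most between the sexes went against the labelled sex. Those probes were picked from these same arrays by the size of the difference, so this does not show that a label is wrong.

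The members differed widely in how much they varied between pigs. HSPA6, a strictly stress-inducible member of the HSP70 family, had the largest SD of the set, 2.01, which exceeded that of 99.7% of the probes. It ran from 3.69 to 12.85 with a median of 7.33. Whether the lowest of these values were above background was not tested. DNAJB1, the main inducible J partner of HSP70, had an SD of 1.62 and ran from 3.78 through a median of 6.92 to 10.36. HSPB6, a small heat shock protein of muscle, followed with an SD of 1.33 and a range from 7.44 to 13.11. At the other end stood DNAJC17, a nuclear J protein (SD 0.445), HSPA8, the constitutive cytosolic HSP70 (0.450), and BAG1, which releases HSP70 clients (0.450). The probes of 7 members, namely BAG5, CCT6A, DNAJC9, FKBP14, FKBP8, HSPA8 and HSPBP1, had a mean under 5. Whether these probes read above background was not tested either, and this applies to every value given for them below. The median SD of the members, 0.643, was close to that of all probes, 0.633. All 47 members and 98.0% of the tested probes pass the authors' filter on variation, described below. These SDs, the smallest included, are thus those of probes that already vary between pigs. Batch took over 30% of the sum of squares in 20 members, led by BAG1 with 52.1%, whereas in HSPH1 it took 0.732% and 95.3% was left to the individual pig.

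**Figure D1:**
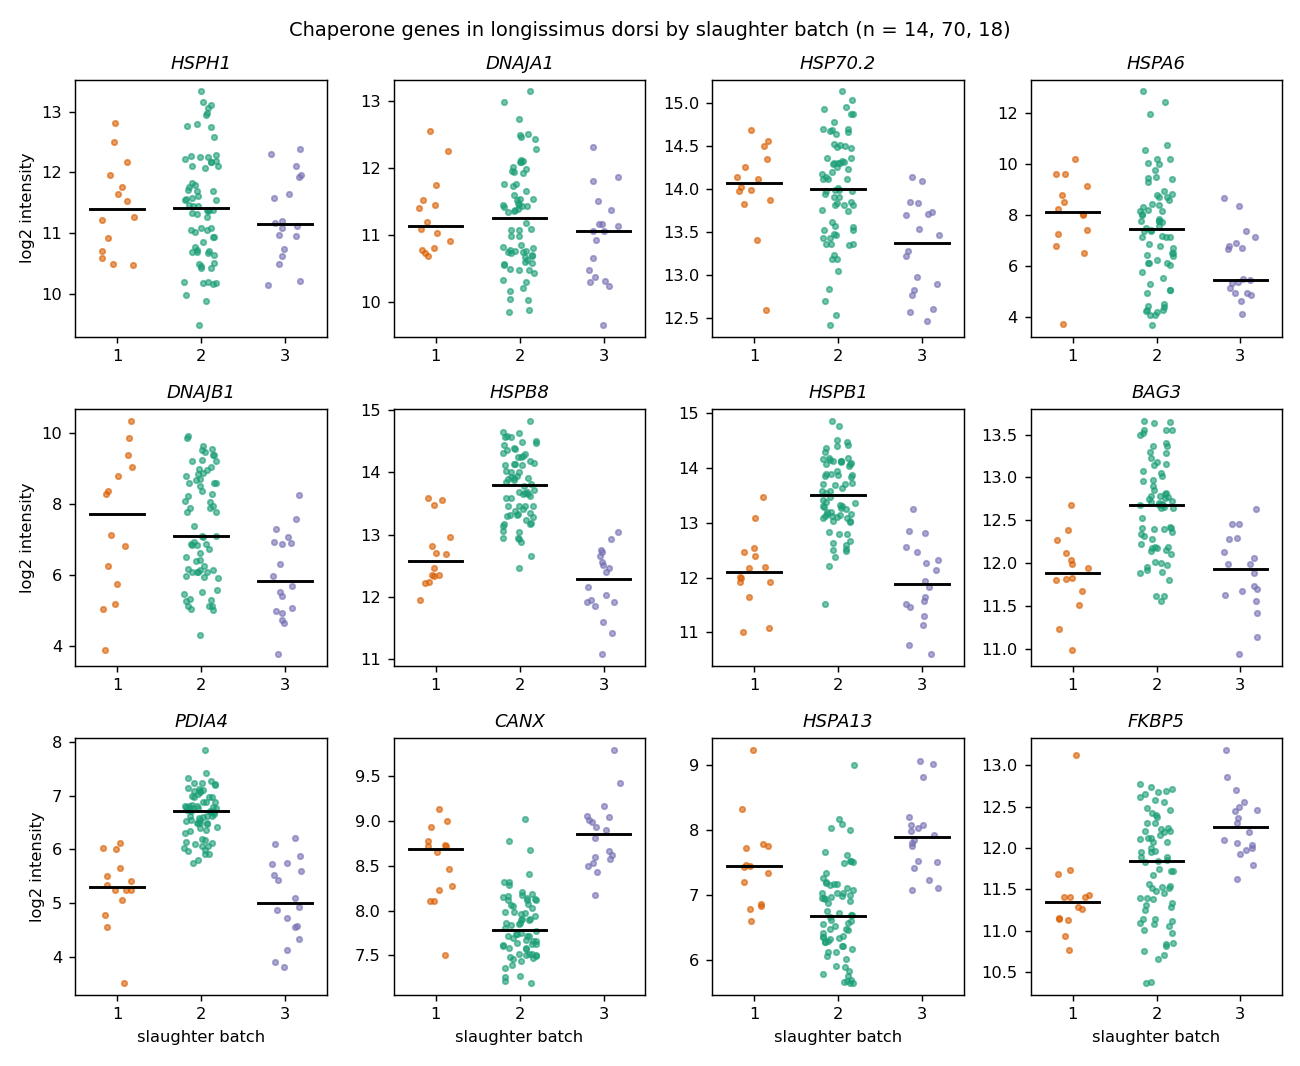
Log2 signal of 12 chaperone genes in each of the 102 pigs, one panel per gene, with pigs grouped by slaughter batch (14, 70 and 18 pigs) and a bar at the group median. PDIA4, HSPB8 and HSPB1 have no pig of batches 1 or 3 above the batch 2 median, HSPA6 and DNAJB1 spread over many log2 units in every batch, and HSPH1 and DNAJA1 overlap throughout.

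How the chaperones varied together was examined in the residuals of each gene after sex, batch and carcass weight, over the 102 pigs, so that differences between batches take no part. The reference for the heat-inducible group was HSPH1, the HSP110 protein that recharges HSP70. It ran from 10.48 through a median of 11.40 to 12.82 in batch 1, from 9.49 through 11.42 to 13.33 in batch 2 and from 10.15 through 11.14 to 12.39 in batch 3. The 3 groups overlapped almost fully, and the batch test did not call it (adjusted p = 0.694). Of the other 46 members, 26 rose and 1 fell with HSPH1, against 15.9% of all probes that rose and 16.0% that fell (31.8% called in either direction). The median slope was 0.16 per SD of HSPH1 over the members and -0.01 over all probes. Of the marker lists, 2 of 4 fibroblast genes fell and 2 of 3 macrophage genes rose with HSPH1, and their part in these slopes was not tested. All these genes share the array and its RNA, so a correlation between them is a description of the pigs' samples, and in whole muscle a lower level in fewer cells and less RNA per cell cannot be told apart.

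Of the 26 members that rose with HSPH1, 13 belong to the cytosolic heat-inducible group and 4 are small heat shock proteins. DNAJA1, a J protein that works with HSP70 on newly made and unfolding proteins, lay closest, with Pearson r = 0.926 and Spearman rho = 0.925 (permutation p = 1e-05 for both, the smallest that 100000 permutations can give, and 4.7e-05 adjusted over the 1081 pairs of members). Within batches 1, 2 and 3 it was 0.906, 0.935 and 0.900, and it was 0.925 without the 2 pigs farthest from the median. HSPA4, a second HSP110 protein, had r = 0.852 with HSPH1 (rho = 0.862, p = 1e-05, and 0.847, 0.874 and 0.772 within batches) and r = 0.880 with DNAJA1. BAG3, which passes damaged muscle proteins to autophagy, had r = 0.800, and HSF2, a transcription factor related to HSF1, had r = 0.774 with HSPH1 and 0.799 with HSPA4. HSPB8, the small heat shock partner of BAG3, had r = 0.765. In all, 11 members had r over 0.6 with HSPH1, and in each of these examples r was above 0.5 within every batch. With 2 principal components of all probes added to the model, r with HSPH1 was 0.869 for DNAJA1, 0.656 for HSPA4, 0.586 for HSPB8, 0.581 for BAG3 and 0.528 for HSF2.

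HSF1 itself, the master regulator of the response, was not called with HSPH1, with r = 0.02 across the 102 pigs. Within batches 1, 2 and 3 r was -0.09, -0.03 and 0.50, and whether the batches differ in this was not tested. Among the 14 other members of the heat-inducible group, 13 rose with HSPH1, and the exception was HSPA8, with r = 0.01. The HSPA8 probe averaged only 4.07, and whether that lay above background was not tested. For DNAJA4 and DNAJB4, J proteins that are strongly expressed in muscle, the pooled r of 0.63 with HSPH1 was not found in batch 3, where it was 0.06 and 0.07. The single member that fell with HSPH1 was FKBP14, a prolyl isomerase of the endoplasmic reticulum that acts on collagen (r = -0.25, adjusted p = 0.0386 by limma). Next among the negative values came DNAJC9 (-0.17), DNAJC24 (-0.11), FKBP1A (-0.11) and HSF2BP (-0.09), none of which was called.

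A second set held HSP70.2 and the 2 genes with the largest SD, HSPA6 and DNAJB1. HSP70.2, the inducible HSP70, and HSPA6 had r = 0.852 (rho = 0.853, p = 1e-05), with 0.910, 0.880 and 0.615 in batches 1, 2 and 3. DNAJB1 had r = 0.791 with HSP70.2 and 0.776 with HSPA6, each above 0.5 in every batch. These 3 genes also moved with HSPH1, though with smaller r values of 0.63 for HSP70.2, 0.46 for HSPA6 and 0.44 for DNAJB1, and with 0.35, 0.27 and 0.12 in batch 1. HSP70.2 carries the synonyms HSPA1A and HSPA1B in RefSeq, so its probes cannot tell near-identical copies apart, and cross-hybridisation between HSP70.2 and HSPA6 was not tested.

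**Figure D2:**
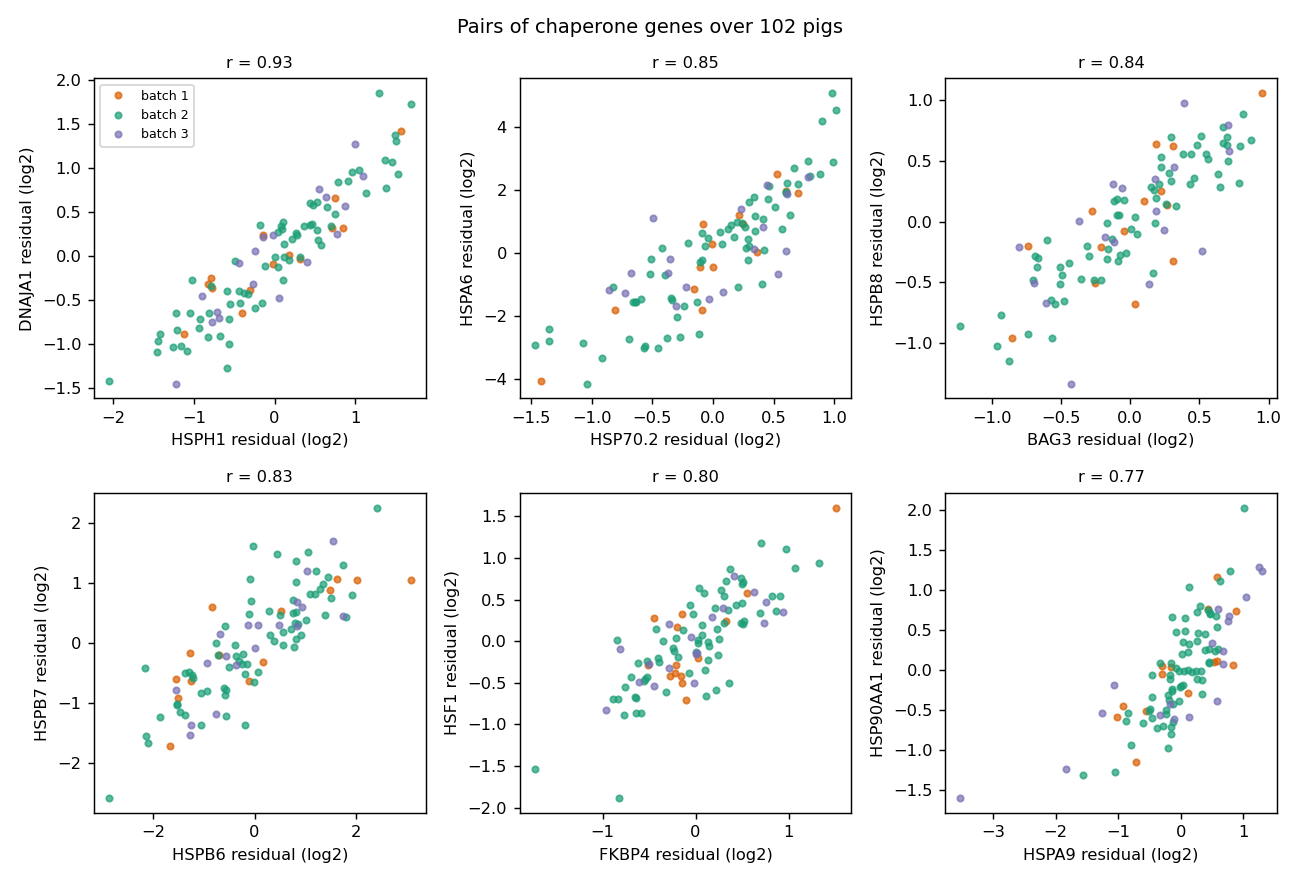
Residual log2 signal, after sex, batch and carcass weight, of 6 pairs of chaperone genes, one point per pig (102 pigs), coloured by slaughter batch. HSPH1 and DNAJA1 lie closest to a line (r = 0.926), followed by HSP70.2 and HSPA6 (0.852), BAG3 and HSPB8 (0.841), HSPB6 and HSPB7 (0.826), FKBP4 and HSF1 (0.798), and HSP90AA1 and HSPA9 (0.773).

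The small heat shock proteins formed a further set around BAG3. Their 10 pairs had a median r of 0.621, the lowest being 0.134 and the highest 0.826, and 9 were called. The highest joined HSPB6 and HSPB7, both muscle forms, with 0.835, 0.828 and 0.857 in the 3 batches. BAG3 had r = 0.842 with CRYAB, the chaperone of desmin, and r = 0.841 with HSPB8. With HSPB1, the small heat shock protein that guards actin, as the reference, 33 of 46 members rose and 6 fell, where 32.2% of all probes rose and 29.0% fell (61.2% in either direction). Its strongest partners were CRYAB (r = 0.78), BAG3 (0.76), STIP1 (0.74), FKBP4 (0.71) and HSPB8 (0.69). Of the members that fell with HSPB1, the strongest were DNAJC9, a J protein that also handles histones (-0.50), DNAJC2, which sits on the ribosome (-0.37), HSPA8 (-0.30), FKBP14 (-0.27) and CANX, the lectin chaperone of the endoplasmic reticulum (-0.26). With 2 principal components of all probes in the model, the 39 members called with HSPB1 became 12, and HSPB6 and HSPB7 still had r = 0.751. BAG3 then had 0.608 with CRYAB and 0.630 with HSPB8, and CRYAB and HSPB8 went from 0.653 to 0.219. With HSPB1 itself, BAG3 had 0.74, CRYAB 0.70, HSPB8 0.50, STIP1 0.46 and FKBP4 0.33.

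HSF1 kept other company. It had r = 0.798 with FKBP4, an immunophilin of the HSP90 complex, 0.714 with FKBP1A, the binding protein of FK506, and 0.707 with HSPBP1, each above 0.5 in every batch. FKBP4 in turn had r = 0.816 with STIP1, the adaptor that joins HSP70 to HSP90. These values fell when 2 principal components were added, with HSF1 and FKBP4 then at 0.380, HSF1 and FKBP1A at 0.203, HSF1 and HSPBP1 at 0.407, and FKBP4 and STIP1 at 0.680. The residuals of HSF1 and FKBP4 also had r = 0.49 and 0.41 with the actin difference described above, that of HSPH1 had -0.09, and the part of RNA quality in these pairs was not tested further. FKBP1A and DNAJC2 gave the only r under -0.7, with -0.722, and with -0.627, -0.761 and -0.457 in batches 1, 2 and 3. It was -0.414 with 2 principal components added, and their residuals had r = 0.37 and -0.42 with the actin difference.

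Chaperones of different compartments met in HSP90AA1, HSPA9 and the disulphide isomerases. HSPA9, the mitochondrial HSP70, had r = 0.773 with HSP90AA1, the inducible cytosolic HSP90, with 0.762, 0.795 and 0.859 in the 3 batches and 0.766 with 2 principal components added. All correlations of HSP90AA1 are for its probe with the highest mean, with which its other probes had r = 0.254 and 0.396. With HSPA9 as the reference, 16 of 46 members rose and 1, FKBP14 (r = -0.38), fell, against 12.9% and 13.7% of all probes (26.6% in either direction). After HSP90AA1 came PDIA4 (r = 0.60), PDIA3 (0.60), CCT6A, a subunit of the chaperonin that folds actin and tubulin (0.52), and DNAJA1 (0.46). On the negative side, DNAJC24 (-0.17), FKBP8 (-0.14), DNAJC5 (-0.13) and HSPA8 (-0.11) were not called. PDIA4, a disulphide isomerase of the endoplasmic reticulum and the reference for that compartment, had 22 of 46 members that rose with it and 1 that fell, where 24.7% of all probes rose and 16.5% fell (41.2% in either direction). Its strongest partners were HSPA9, PDIA3, the isomerase that serves glycoproteins (0.58), HSP90AA1 (0.55), STIP1 (0.51) and FKBP4 (0.48), and the member that fell was DNAJC24 (-0.29), a J protein needed for diphthamide. Next came CANX (-0.23), DNAJC2 (-0.23), HSPA8 (-0.21) and FKBP14 (-0.16), none called. Only 1 of the 5 other endoplasmic reticulum members, PDIA3, was called with PDIA4. With 2 principal components the 23 calls became 8, and with the muscle marker mean in the model, an alternative chosen after seeing the data, they became 9.

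Over all 1081 pairs of members the median r was 0.133, against -0.004 over all pairs of probes. A total of 525 pairs (48.6%) were called, 422 positive and 103 negative. An r at least as large in size as that of the weakest called pair, 0.224, occurred in 39.9% of all pairs of probes. At the extremes, 142 pairs (13.1%) had r over 0.5 against 3.92% of all pairs, whereas 8 (0.740%) had r under -0.5 against 1.57%. The 37 pairs with r over 0.7 were all positive within every batch, though not always clearly, DNAJA4 and HSPA4 having 0.095 in batch 3. With 2 principal components added, the lowest r among the 37 was 0.203. By role, the median r was 0.397 among the 15 heat-inducible genes (77 of 105 pairs called), 0.229 among BAG proteins and HSFs (8 of 15), 0.098 among the 6 endoplasmic reticulum genes (5 of 15), -0.023 among the prolyl isomerases (4 of 15) and -0.049 among the other J proteins (11 of 21). For the heat-inducible genes the median was 0.300, 0.455 and 0.315 within batches 1, 2 and 3.

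**Figure D3:**
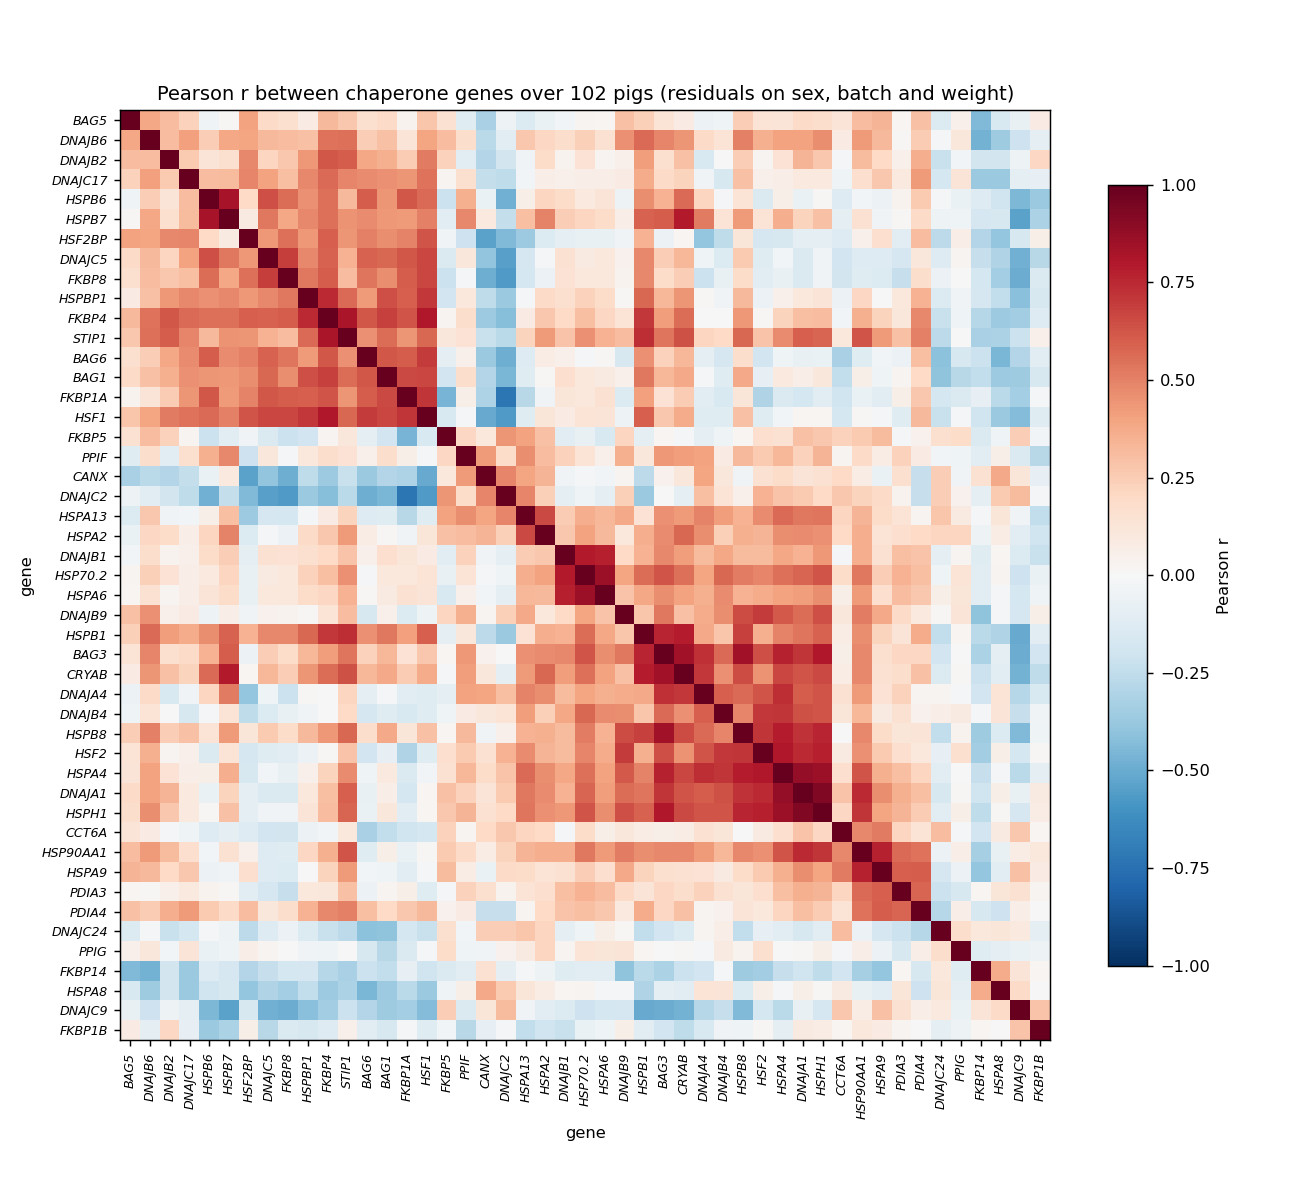
Heat map of Pearson r between the residual log2 signals of the 47 chaperone genes over 102 pigs, ordered by clustering, with a colour scale from -1 to 1. The block of heat-inducible genes holds HSPH1, DNAJA1 and HSPA4, the largest value being 0.926, and the lowest value in the map is -0.722 for DNAJC2 and FKBP1A.

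Between slaughter batches the small heat shock proteins and most BAG proteins were highest in batch 2, the endoplasmic reticulum genes went both ways, and the heat-inducible genes were less uniform. Both comparisons below use batch 2 as the base and share its 70 pigs. In batch 1, 7 members were higher and 23 lower than in batch 2, against 32.7% of all probes higher and 41.5% lower. In batch 3, 10 members were higher and 28 lower, against 36.2% and 45.3%. In shares, the members were higher in 14.9% and lower in 48.9% in batch 1, and higher in 21.3% and lower in 59.6% in batch 3. The median difference was -0.34 in batch 1 and -0.61 in batch 3 over the members, where all probes had the medians of -0.11 and -0.17 given above. No called member changed sign when the arrays were quantile normalised or their medians subtracted, the second being chosen after seeing the data.

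All 5 small heat shock proteins were lower in batch 3 than in batch 2, and 4 were lower in batch 1. HSPB8 ran from 11.95 through 12.57 to 13.60 in batch 1, from 12.46 through 13.79 to 14.84 in batch 2 and from 11.08 through 12.28 to 13.03 in batch 3. No pig of batch 1 or 3 reached the batch 2 median, although the ranges overlapped. The difference from batch 2 was -1.08 ± 0.16 (SE, adjusted p = 4.6e-09) in batch 1 and -1.54 ± 0.15 (adjusted p = 9.9e-17) in batch 3. HSPB1 had the same shape, with 11.01, 12.10 and 13.47 as lowest, median and highest in batch 1, 11.51, 13.51 and 14.87 in batch 2 and 10.60, 11.88 and 13.25 in batch 3. Again no pig outside batch 2 reached its median, and the differences were -1.35 ± 0.20 (adjusted p = 6.6e-09) and -1.56 ± 0.19 (adjusted p = 1.3e-12). HSPB6 was lower by the fit in both batches (-0.95 ± 0.35 and -1.22 ± 0.32), HSPB7 likewise (-0.67 ± 0.27 and -0.55 ± 0.25), and CRYAB differed by -0.35 in batch 1, which was not called, and by -0.61 ± 0.16 in batch 3. These differences moved with the muscle markers and the actin probes. With the mean of DES, PYGM and TNNT1 in the model, HSPB8 and HSPB1 kept differences of -0.82 and -0.64 in batch 1 and -1.24 and -0.74 in batch 3, all called, whereas HSPB6 turned to 0.87 and 0.91, both called in the opposite direction, and HSPB7 to 0.44 (adjusted p = 0.144) and 0.75 (adjusted p = 0.0100). CRYAB in batch 3 was then -0.05 (adjusted p = 0.862), and under quantile normalisation -0.12 (adjusted p = 0.359). HSPB7 under quantile normalisation was -0.51 (adjusted p = 0.0613) and -0.31 (adjusted p = 0.204). Neither HSPB6 nor HSPB7 was called once the actin difference entered the model.

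The BAG proteins and heat shock factors were lower outside batch 2 in 5 of 6 cases. BAG1 had the largest F value of the set (73.2), with 8.86, 9.34 and 10.23 as lowest, median and highest in batch 1, 9.21, 10.16 and 10.57 in batch 2 and 8.89, 9.29 and 9.87 in batch 3. Only 1 of 14 pigs of batch 1 and none of the 18 of batch 3 exceeded the batch 2 median, and the differences were -0.73 ± 0.08 (adjusted p = 5.9e-13) and -0.77 ± 0.08 (adjusted p = 5.9e-16). BAG6, which escorts proteins bound for membranes or the proteasome, differed by -0.83 in both batches. BAG3 ran from 10.98 through 11.88 to 12.67, from 11.56 through 12.68 to 13.66 and from 10.94 through 11.94 to 12.62 in the 3 batches. It was thus below the batch 2 median in every pig of batches 1 and 3, and differed by -0.77 ± 0.15 (adjusted p = 4.8e-06) and -0.74 ± 0.14 (adjusted p = 1.3e-06). BAG5, which works on HSP70 as well, differed by -0.55 and -0.62. HSF1 had medians of 5.82, 7.06 and 5.78 in batches 1, 2 and 3 and differed by -1.04 ± 0.17 and -1.12 ± 0.16, whereas HSF2 had medians of 9.66, 9.72 and 9.71 and was not called (adjusted p = 0.848). The HSF1 differences became -0.27 (adjusted p = 0.142) and -0.21 (adjusted p = 0.247) with the muscle marker mean in the model, and BAG6 in batch 3 became -0.21 (adjusted p = 0.104). In the same model BAG1 was -0.44 and -0.43 and BAG3 -0.50 and -0.42, all called. BAG3 after quantile normalisation was -0.45 (adjusted p = 0.0013) and -0.30 (adjusted p = 0.0169). HSF2BP differed by -0.78 and -0.84 and HSPBP1 by -0.73 and -1.10.

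In the endoplasmic reticulum the members went both ways. PDIA4 ran from 3.51 through 5.29 to 6.12 in batch 1, from 5.75 through 6.71 to 7.86 in batch 2 and from 3.80 through 5.00 to 6.21 in batch 3. The groups barely overlapped, since 3 of the 14 pigs of batch 1 and 3 of the 18 of batch 3 lay inside the batch 2 range and none above its median. The differences were -1.34 ± 0.16 (adjusted p = 3.8e-12) and -1.53 ± 0.15 (adjusted p = 1.3e-16), and with the muscle marker mean in the model -0.89 and -1.00, still called. PDIA3 was also lower (-0.62 and -0.67), as was DNAJB9, a J protein of the unfolded protein response (-0.68 and -0.84). CANX was higher instead, with 7.50, 8.69 and 9.13 as lowest, median and highest in batch 1, 7.19, 7.79 and 9.02 in batch 2 and 8.18, 8.86 and 9.79 in batch 3. Above the batch 2 median lay 13 of 14 and 18 of 18 pigs, with differences of 0.66 ± 0.12 (adjusted p = 5e-07) and 0.98 ± 0.11 (adjusted p = 7.3e-14). HSPA13, an HSP70-like protein of microsomes, was higher by 0.74 ± 0.19 and 1.18 ± 0.18, the first becoming 0.51 (adjusted p = 0.0562) with the muscle marker mean in the model. FKBP14 was higher in batch 1 (0.47 ± 0.17, adjusted p = 0.0110) and differed by 0.26 ± 0.16 in batch 3, which was not called.

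**Figure D4:**
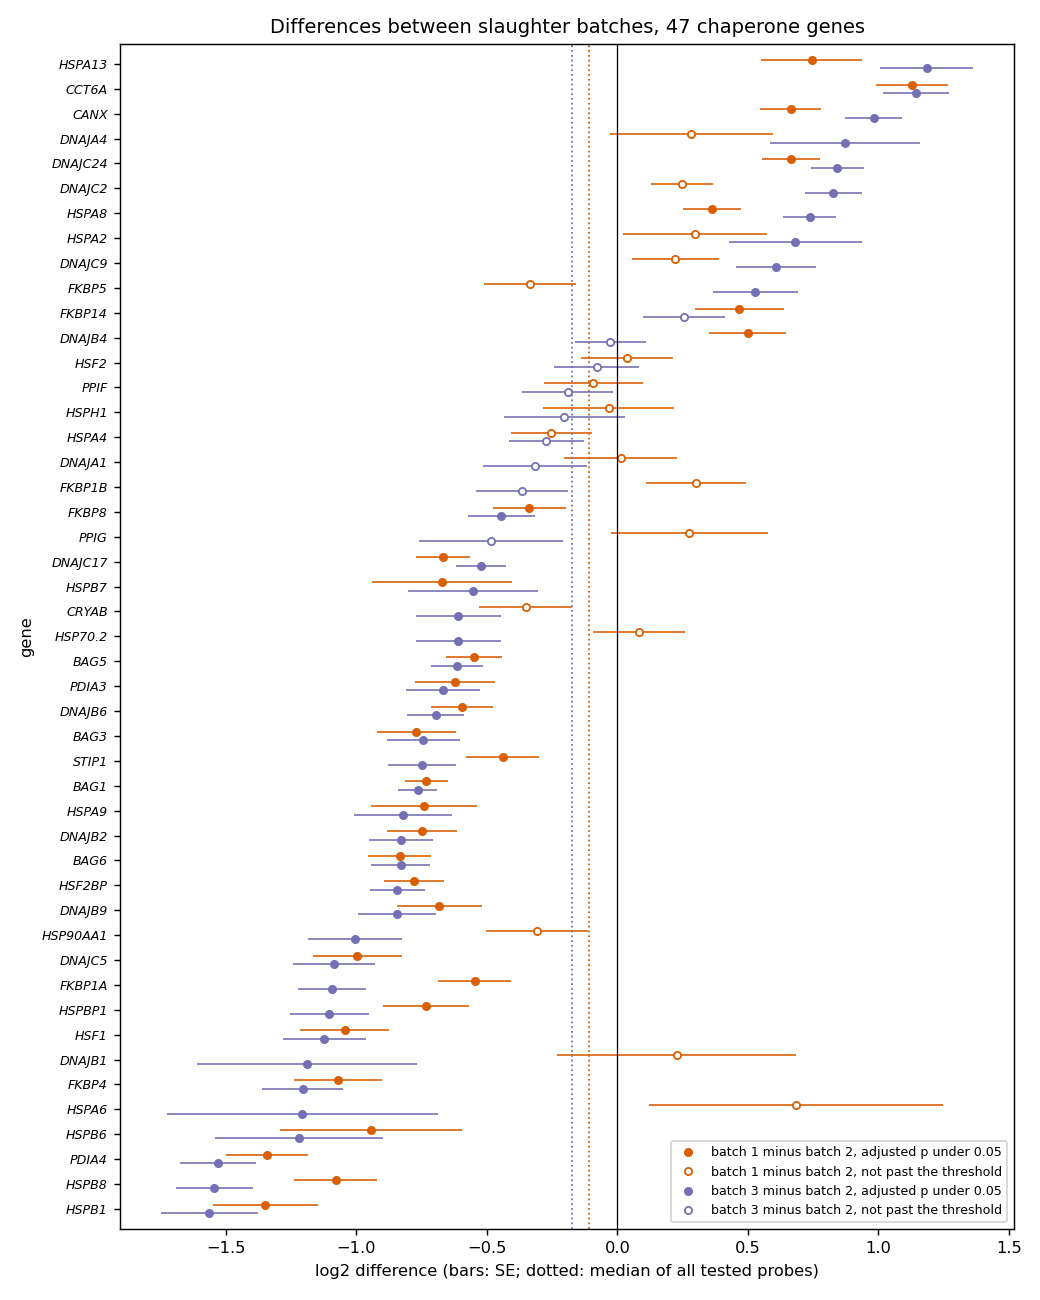
Differences in log2 signal of the 47 chaperone genes from batch 2 for batch 1 (14 pigs) and batch 3 (18 pigs), each as the limma estimate with a bar of 1 SE, with a dotted line at the median of all probes (-0.11 and -0.17). PDIA4, HSPB1 and HSPB8 lie farthest to the negative side in both, and CCT6A and HSPA13 farthest to the positive side.

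Of the 15 heat-inducible genes, 2 were higher and 3 lower in batch 1, and 4 higher and 7 lower in batch 3. The higher ones were DNAJB4 and HSPA8 in batch 1, and DNAJA4, FKBP5, HSPA2 and HSPA8 in batch 3. The list thus includes HSPA8, the constitutive HSP70, and FKBP5, which glucocorticoids induce. HSPH1, DNAJA1 (adjusted p = 0.282) and HSPA4 (adjusted p = 0.0963), which varied most closely together, were the 3 of this group that the batch test did not call. HSP70.2 ran from 12.59 through 14.07 to 14.69 in batch 1, from 12.42 through 14.00 to 15.14 in batch 2 and from 12.46 through 13.37 to 14.14 in batch 3. Only 2 of the 18 pigs of batch 3 exceeded the batch 2 median. It differed from batch 2 by 0.08 ± 0.18 in batch 1, which was not called, and by -0.61 ± 0.16 (adjusted p = 0.00047) in batch 3, a difference that was -0.18 (adjusted p = 0.276) after quantile normalisation. HSPA6 ran from 3.72 through 8.14 to 10.21, from 3.69 through 7.47 to 12.85 and from 4.13 through 5.47 to 8.65 in batches 1, 2 and 3. It was 1.21 ± 0.52 log2 units lower in batch 3 by the fit (-1.21, adjusted p = 0.0280), and -1.05 (adjusted p = 0.0764) without the 5 arrays that went against the labelled sex. DNAJB1 ran from 3.91 through 7.72 to 10.36, from 4.32 through 7.10 to 9.92 and from 3.78 through 5.84 to 8.26, with -1.19 ± 0.42 (adjusted p = 0.0079) in batch 3. With the actin difference in the model these 2 became -0.63 (adjusted p = 0.324) and -0.87 (adjusted p = 0.0936). HSP90AA1 was lower in batch 3 (-1.00 ± 0.18, adjusted p = 4.7e-07) and differed by -0.31 in batch 1, not called.

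Batches 1 and 3 were also set against each other, a comparison in which all probes had a median of 0.04 and 8.18% were higher and 8.59% lower in batch 1. Of the members, 6 were higher in batch 1: HSP70.2 (0.69 ± 0.21), HSPA6 (1.89 ± 0.66), HSP90AA1 (0.70 ± 0.23), DNAJB4 (0.52 ± 0.17), FKBP1A (0.55 ± 0.17) and FKBP1B, which steadies the muscle calcium release channel (0.67 ± 0.22). DNAJB1 had 1.42 ± 0.54 and missed the threshold (adjusted p = 0.0558), which it passed after quantile normalisation (adjusted p = 0.0499). HSP70.2 (0.44, adjusted p = 0.109) and DNAJB4 (0.31, adjusted p = 0.192) lost their calls in that setting. The 3 that were lower were FKBP5, a glucocorticoid-induced partner of HSP90 (-0.86 ± 0.21, adjusted p = 0.0021), DNAJC2 (-0.58 ± 0.14) and HSPA8 (-0.37 ± 0.13). FKBP5 had medians of 11.35, 11.84 and 12.25 in batches 1, 2 and 3, with 1 of 14 pigs of batch 1 and 16 of 18 of batch 3 above the batch 2 median. Age was lower in batch 1, and with age in the model FKBP5 was -0.56 (adjusted p = 0.216), HSP70.2 0.56 (adjusted p = 0.224) and HSPA6 1.57 (adjusted p = 0.294). In females alone and in males alone, none of HSP70.2, HSPA6, HSP90AA1 or FKBP1A was called between these batches.

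Among the remaining groups, CCT6A was higher by 1.13 ± 0.14 in batch 1 and 1.14 ± 0.13 in batch 3, with medians of 4.47, 3.13 and 4.21 in batches 1, 2 and 3. Its batch 2 values were low and close together (mean 3.16, SD 0.23), and whether they lay above background was not tested. FKBP4 was lower by the fit (-1.07 ± 0.17 and -1.21 ± 0.16), and its batch 1 value was -0.35 (adjusted p = 0.0548) with the muscle marker mean in the model. FKBP1A differed by -0.55 ± 0.14 and -1.09 ± 0.13, the first turning to 0.05 (adjusted p = 0.766) in that model. DNAJC24 was higher (0.67 ± 0.11 and 0.84 ± 0.10), and DNAJC5, a J protein of vesicle release (-1.00 and -1.09), and DNAJB2, which clears misfolded proteins in neurons and muscle (-0.75 and -0.83), were lower. With the muscle marker mean in the model DNAJC5 was -0.22 (adjusted p = 0.229) and -0.17 (adjusted p = 0.346). HSPA9 was lower (-0.74 ± 0.20 and -0.82 ± 0.19) and PPIF, the cyclophilin of the mitochondrial permeability pore, was not called (adjusted p = 0.559). HSPA8, which with FKBP4 is counted in the heat-inducible group above, was higher, by 0.36 ± 0.11 and 0.74 ± 0.10, at a probe with a mean of 4.07.

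A gene's probes did not always go the same way between batches. Of the 14 members with 2 or more probes, all probes had one sign in 9 for batch 1 against batch 2, in 12 for batch 3 against batch 2, in 13 for sex and in 14 for the slope on HSPH1. HSP90AA1 was called both ways in batch 3, with -1.00 at the probe described and 0.52 and 1.43 at its other probes, which correlated with it at r = 0.254 and 0.396. CRYAB had -0.35 and 1.56 in batch 1 (r = 0.350 between its probes), and FKBP5 had 0.53 and -0.29 in batch 3. The probes of HSP70.2 correlated at 0.961 and 0.971, yet ran from -0.33 to 0.46 in batch 1 and from -1.33 to -0.19 in batch 3. Those of DNAJB9 correlated at 0.967 and 0.858. The probes of DNAJB6 (-1.53 to 0.02) and HSPA4 (-0.25 to 0.14) also differed in sign in batch 1. A statement between batches on HSP90AA1, CRYAB, FKBP5, HSP70.2, DNAJB6 or HSPA4 therefore holds for the probe described and not for the gene. For HSP90AA1 the same holds for its correlations, the slope on HSPH1 running from 0.11 to 0.46 over its probes.

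Sex gave a smaller and more even pattern. A total of 10 members (21.3%) were called, against 26.1% of all probes, and 9 of them were lower in females, where 11.7% of all probes were higher and 14.4% lower in females. DNAJB9 ran from 9.75 through a median of 10.60 to 11.58 in the 55 females and from 9.77 through 11.14 to 12.48 in the 47 males. The ranges overlapped, but 9 females exceeded the male median, and the difference was -0.49 ± 0.11 (SE, adjusted p = 4.5e-04). HSF2 had 8.44, 9.57 and 10.80 in females and 8.65, 9.95 and 11.27 in males, with 12 females above the male median and a difference of -0.45 ± 0.12 (adjusted p = 0.0029). HSPA13 had 5.65, 6.83 and 8.33 in females and 5.65, 7.17 and 9.24 in males, with 19 females above the male median and a difference of -0.46 ± 0.13 (adjusted p = 0.0051). Also lower in females were BAG3 (-0.36 ± 0.10), PPIF (-0.44 ± 0.13), HSPA4 (-0.35 ± 0.10), DNAJB6, a J protein that muscle needs at the Z disc (-0.27 ± 0.08), HSPB8 (-0.33 ± 0.11) and DNAJA4 (-0.58 ± 0.21). FKBP14 alone was higher, with 45 of 55 females above the male median and 0.35 ± 0.12 (adjusted p = 0.0190).

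The sex differences were also taken within each batch. In batch 2 the female minus male difference was -0.60 for DNAJB9, -0.50 for HSF2 and -0.42 for HSPA13. In batch 1 the same genes gave -0.18, -0.39 and -0.36, and in batch 3 -0.24, -0.16 and -0.61. The direction in batch 2 was also that of batches 1 and 3 for 9 of the 10 genes, DNAJB6 giving 0.16 in batch 1. HSPH1 was not called by sex (-0.35 ± 0.17, adjusted p = 0.116), with 0.08, -0.51 and 0.09 in batches 1, 2 and 3. The second probe of HSPA4 gave -0.10 (adjusted p = 0.466). After quantile normalisation BAG3 (adjusted p = 0.0524), DNAJA4 (0.0623), DNAJB6 (0.0783) and HSPB8 (0.122) were no longer called, and the 10 calls became 6. Leaving out the 5 arrays that went against the labelled sex left 10 calls. Those arrays were picked by sex differences in these same data, so this count is no check of the calls. Without batch and weight in the model HSPA13 and DNAJA4 were not called (adjusted p = 0.0787 and 0.101).

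**Figure D5:**
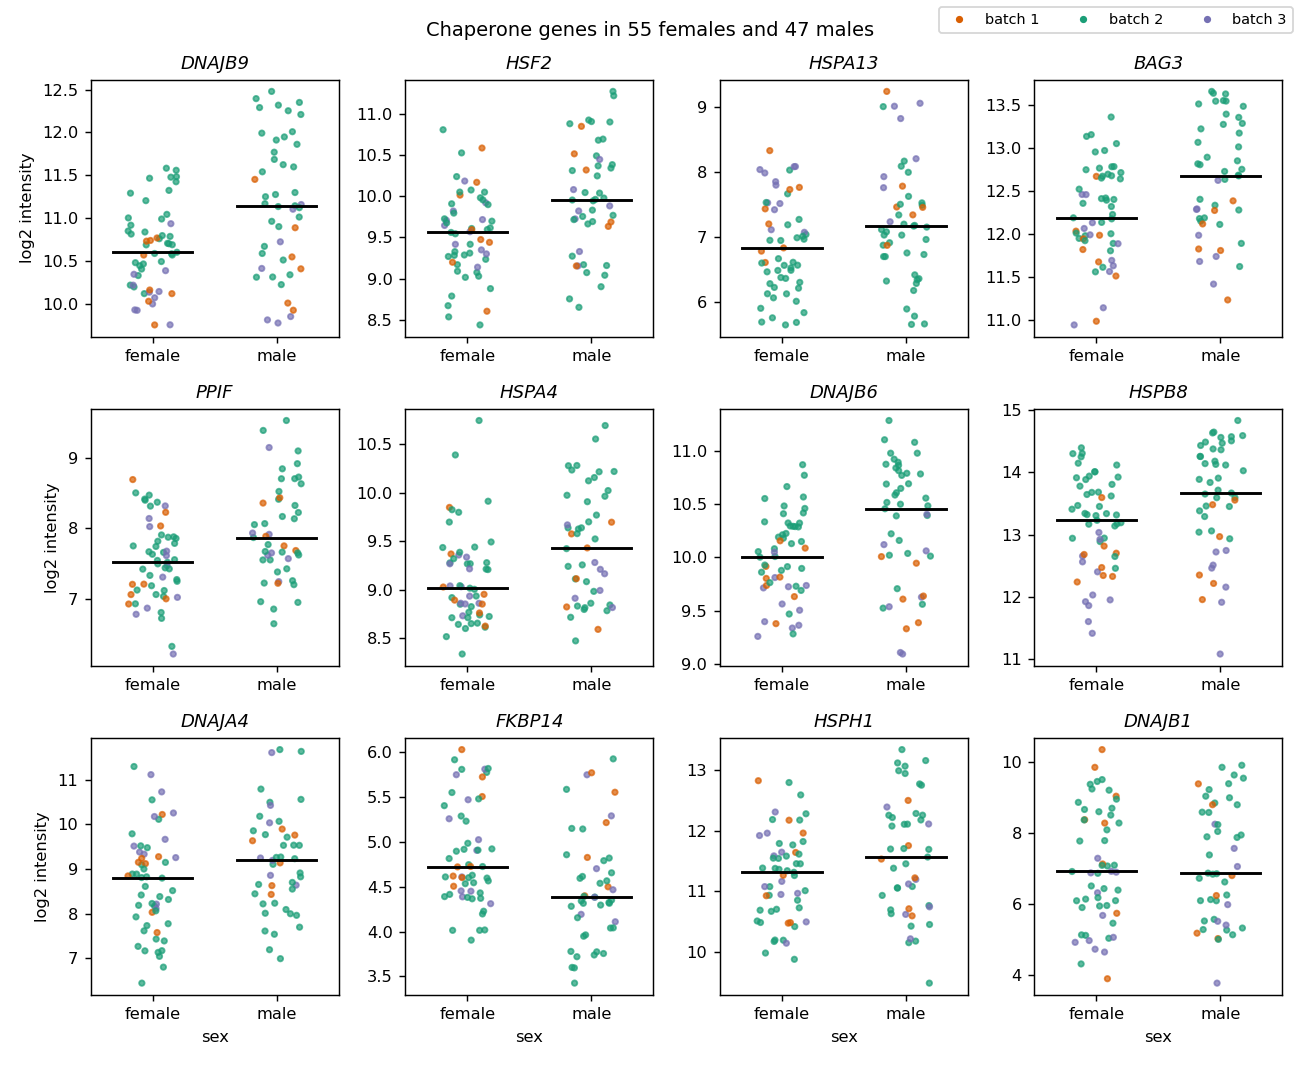
Log2 signal of 12 chaperone genes in 55 females and 47 males, one panel per gene, each point a pig coloured by slaughter batch and each bar a group median. The ranges overlap in every panel; DNAJB9 is lower in females by 0.49 log2 units (9 of 55 females above the male median), FKBP14 is higher, and DNAJB1 and HSPH1 were not called.

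Carcass weight gave no call among the members or elsewhere. With limma, 0 of the 5449 probes (0%) passed, the smallest adjusted p being 0.0555 overall and 0.396 among members, while 589 probes (10.8%) and 2 members had an unadjusted p under 0.05. The members were DNAJB2 (0.13 ± 0.05 per 10 kg) and HSF1 (0.13 ± 0.06 per 10 kg). The other 6 of the 8 members with the smallest p had slopes of 0.05 (BAG1), 0.09 (HSPBP1), 0.06 (DNAJC17), 0.17 (HSPB6), -0.14 (DNAJA4) and -0.14 (PPIG) per 10 kg. The interaction of sex and batch likewise gave 0 calls by limma (0%), with 425 probes (7.80%) and 1 member, DNAJB6, at an unadjusted p under 0.05 and a smallest adjusted p of 0.179 overall and 0.636 among members.

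Of 47 further chaperone pathway genes listed, 8 were measured, and batch called all 8, with 1 higher and 7 lower in each of batches 1 and 3. Of all probes 86.6% were called by batch, 41.5% were lower in batch 1 and 45.3% in batch 3. LONP1, the mitochondrial protease, differed by -0.71 and -1.04, STUB1, the ubiquitin ligase that disposes of HSP70 clients, by -1.06 and -1.77, SGTA, a partner of BAG6, by -1.21 and -0.95, and TRAP1, the mitochondrial HSP90, by -0.64 and -0.86. SUGT1, an HSP90 adaptor, was the one that was higher (0.45 and 0.67). HYOU1, the HSP110 of the endoplasmic reticulum, was lower in females (-0.53), as was PPIL2 (-0.25), and SUGT1 and HYOU1 were the 2 that rose with HSPH1.

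Of 25 genes of the unfolded protein and integrated stress response 5 were measured, and 3 rose and 1 fell with HSPH1. The risers were ATF3, a stress-induced transcription factor (r = 0.66), PPP1R15A, which restarts translation (0.60), and DDIT3, also called CHOP (0.45), while ASNS, which makes asparagine, fell (-0.32). In batch 1, DDIT3 (0.62), ASNS (1.19) and EIF2AK2, the interferon-induced kinase (0.56), were higher and PPP1R15A was lower (-1.10). In batch 3, none was higher, and PPP1R15A (-1.85) and ASNS (-0.80) were lower. In females 3 of the 5 genes were lower and 1 higher. Of 24 immediate-early genes 11 were measured, and 9 rose and none fell with HSPH1, where 15.9% of all probes rose and 16.0% fell, among them NR4A3 (r = 0.58), FOSL2 (0.56) and MYC (0.49). Batch called 8 of the 11, with 0 higher and 4 lower in batch 1 and 0 higher and 8 lower in batch 3. Of all probes, batch called 86.6%, with 41.5% lower in batch 1 and 45.3% lower in batch 3. By the smallest batch p these were DUSP1 (-0.59 and -1.40), IER5 (-0.66 and -1.04), BTG2 (-0.67, not called, and -1.71) and CYR61 (-0.83 and -1.80).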

How the data were processed

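Muscle RNA of 102 pigs was hybridised to Affymetrix porcine arrays, 1 array per pig. The deposited values are log2 signals that the authors normalised with GCRMA, its version not given in the sources used here, and in their methods they kept probes that differed from the median by at least 1.5-fold in more than 20% of arrays, a filter that 98.0% of the tested probes pass. From these, 44 control probes were left out and 5449 were tested. Gene names came from the platform annotation, in which 2639 tested probes have 1 symbol, 49 several and 2761 none, and 46 of the 47 members matched RefSeq by gene ID. No sequence was used, and no columns were left unused (0). No pair of arrays held identical values. The number of arrays limits the precision.

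Models with sex, batch and carcass weight were fitted by limma 3.58.1 in R 4.3.3 with two-sided moderated tests, residual correlations and 100000 permutations in Python 3.11.15 (numpy 2.4.6, scipy 1.17.1, pandas 2.3.3), and figures in matplotlib 3.10.9. The scripts were tested on simulated data. The genes and lists were chosen with earlier results of these data known. Values are given for the reference genes of 4 groups, the 14 members with the largest batch F, the 8 with the smallest p for sex and for weight, the 5 strongest partners of each reference gene in each direction, the 10 strongest pairs, the 3 largest and smallest SDs, and up to 4 genes of each further list, and other members are named where a count or a correlation turns on them. Alternatives were quantile normalisation, age, 2 principal components or the actin difference as added terms, array weights, batch as a random block, batch 2 alone, either sex alone, no other covariates, Benjamini-Yekutieli adjustment at 0.20, all probes of the members, probes with a mean under 4 left out and the 5 arrays left out; subtraction of array medians and the muscle marker mean were chosen after seeing the data.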

Additional observations from a re-analysis of the deposited data

How the results depend on the processing

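Of the single values recomputed, 1579 counted as the same, 128 lost a call, 37 gained one and 11 turned sign with a call in either setting. A value that turned sign without a call in either setting is counted among the same. Of the counts, 150 stayed within 1.5 times the value reported. The 10 members called by sex became 6 under quantile normalisation, 17 with 2 principal components added and 18 in batch 2 alone. For carcass weight, 0 became 1 with 2 principal components and 29 without sex and batch in the model. The 23 calls with PDIA4 became 8 with 2 principal components, 15 with the actin difference and 9 with the muscle marker mean, and the 39 with HSPB1 became 12 and, with the muscle marker mean, 25. The 7 members higher in batch 1 became 4 in males alone. With the muscle marker mean, the 23 lower in batch 1 became 14 and the 28 lower in batch 3 became 16. With 2 principal components, 264 of all 1081 pairs were called, against 525 without them, and how many are shared was not counted. The calls with HSPH1 ran from 18 to 28, those with HSPA9 from 14 to 24, and those by batch from 29 to 42. With the muscle marker mean added, the batch 1 difference turned to 0.0526 for FKBP1A, 0.0120 for STIP1, 0.87 for HSPB6, 0.20 for FKBP8 and 0.44 for HSPB7, and the batch 3 difference to 0.91 for HSPB6, 0.18 for FKBP8 and 0.75 for HSPB7. The batch 1 difference of FKBP8 was 0.0271 with the actin difference added, the slope of FKBP14 on HSPB1 0.0385 with 2 principal components added, and the batch 3 difference of DNAJB4 0.48 after quantile normalisation. The cause of these changes was not tested. No paired analysis was possible because each pig belongs to a single batch and gave a single array.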

Other observations

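Outside the chaperones, 354 of the 2154 other named genes rose and 299 fell with HSPH1 after sex, batch and carcass weight (limma, adjusted p under 0.05), and r was over 0.6 in 36 and under -0.6 in 5. The genes below were picked after their values were seen, as those with the smallest p, and are given as values only. The closest was VAPA, a tether between membranes (r = 0.77, and 0.82, 0.77 and 0.76 in batches 1, 2 and 3), followed by CYLD, a deubiquitinase of NF-kB signalling (0.77), TRAFD1 (0.75), DDX39A, an RNA helicase (0.75), and ODC1, the first enzyme of polyamine synthesis (0.73). EIF4E, the cap-binding protein of translation, had r = 0.71 overall but 0.23 in batch 3. ZFAND2A, an arsenite-inducible gene, had r = 0.67.

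The genes that fell with HSPH1 most closely were MEIS1, a homeobox transcription factor (r = -0.67, and -0.73, -0.69 and -0.54 in the 3 batches), TBCC, a tubulin folding cofactor (-0.65), ANAPC5, a subunit of the anaphase-promoting complex (-0.64, but -0.13 in batch 3), SLC2A12, a glucose transporter (-0.63), and PPP1R3B, which targets a phosphatase to glycogen (-0.62). All 5 were also higher in females by limma: MEIS1 by 0.99 ± 0.16 (adjusted p = 1.8e-06), PPP1R3B by 0.98 ± 0.20 (adjusted p = 0.00013), TBCC by 0.61, SLC2A12 by 0.49 and ANAPC5 by 0.35.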
